A study of Homo sapiens with 18 samples.

Results

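The genes described here encode subunits of the 5 complexes of oxidative phosphorylation, measured in RNA from human podocytes on fractal or smooth surfaces. They were chosen by symbol alone, as protein-coding genes whose names mark them as subunits. Subunits under other names are not included, so the numbers per complex need not be complete. The genes chosen number 101 of the 58735 genes in the count table. Of these, 88 are encoded in the nucleus and 13 in the mitochondrial genome. The nuclear genes comprise 37 of complex I, 4 of complex II, 9 of complex III, 18 of complex IV, 19 of complex V and COX7A2L, which takes part in joining complexes III and IV into supercomplexes. The mitochondrial genes comprise 7 of complex I, 1 of complex III, 3 of complex IV and 2 of complex V.

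The cells were PODO/TERT256, a podocyte line made immortal with TERT, the catalytic part of telomerase. Podocytes are the epithelial cells that wrap the capillaries of the glomerulus. There were 6 groups of 3 libraries, all cultured on 3D hemispheres. Cells on the fractal and on the smooth topography were treated with the cytokines TNF-α and IL-6, exposed to macrophages made from the leukaemic monocyte line THP-1, or left as controls. The labels did not tie libraries to separate cultures, so p-values measure only the spread between these libraries, which may be technical. In bulk RNA, fewer cells of a type and less RNA per cell cannot be told apart.

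Complexes I to IV pass electrons from NADH and succinate to oxygen. Complexes I, III and IV pump protons out of the mitochondrial matrix as they do so, and complex V, the ATP synthase, uses the returning protons to make ATP. Most subunits are made from nuclear genes and imported, while the mitochondrial genome encodes a few membrane-bound core subunits, so every complex except complex II is built from both genomes.

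Library totals ran from 11488204 to 21264180 counts. Of 12 podocyte markers, 7 had more than 50 counts over all libraries together, among them ACTN4 with 307978, SYNPO with 24078 and PODXL with 2170, but NPHS1 had 6 and TRPC6 had 0. Of 7 fibroblast or mesangial markers 6 passed the same mark, with COL1A1 at 1781012 and DCN at 20805 counts. Their summed level moved with the groups, at 8295 to 10700.0 CPM in fractal cytokines, 5126 to 8598 in smooth cytokines, 3286 to 8690.0 in fractal THP-1, 3346 to 3536 in smooth THP-1, 6399 to 6475 in fractal controls and 5420.0 to 5699 in smooth controls, and its part in the results below was not tested. This sum was nearly all COL1A1, with means of 4979 of 5103 CPM in fractal THP-1 and 6371 of 6434 in fractal controls. In fractal THP-1 the sum was 3286 and 3332 CPM in replicates 1 and 2, below all fractal controls, but 8690 in replicate 3, above them all. The means of PDGFRB and ACTA2 were also lower in fractal THP-1, at 13.2 and 14.6 CPM against 23.7 and 15.3 in fractal controls. DCN, LUM and PDGFRA were higher there, at 35.96, 54.4 and 5.70 CPM against 7.36, 16.9 and 0.497, so the sum does not speak for the markers as a set. In the mitochondrial genes smooth cytokines replicate 2 was far above its group and fractal THP-1 replicate 3 far below, and results that rest on these libraries are given with and without them. Of 18 monocyte and macrophage markers, 17 had counts, and their sum was 29.8 to 34.96 CPM in fractal THP-1 libraries, 62.9 to 73.1 CPM in smooth THP-1 libraries, 3.25 to 4.94 CPM in fractal cytokine libraries, 7.42 to 8.30 CPM in smooth cytokine libraries, 2.54 to 4.15 CPM in fractal controls and 2.51 to 3.22 CPM in smooth controls (counts per 1000000 of the library total). More than 50 counts over all libraries together were reached by 11 of the 18, among them ITGB2 with 1556, LAPTM5 with 983 and CD14 with 887. CD68 and LYZ had 5 counts each over all libraries and CD86 had 0.

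Promoters of respiratory genes are known for the motifs of a few factors. The upstream sequences of 4 genes, among several whose results recur below, are printed to show how these 4 differ in such motifs. SDHB is the iron-sulphur subunit of complex II, NDUFS1 a core subunit of complex I, COX8A a small subunit of complex IV, and ATP5MC1 encodes subunit c of the ATP synthase ring. Windows of 300 bases, 250 before to 50 after the start, came from RefSeq (GRCh38.p14) and were found for 69 of the 88 nuclear genes. They were searched on both strands for GCATGCG (NRF1), CCGGAAG (ETS factors such as GABPA), AAGATGG (YY1) and AAGGTCA (ERR-alpha). The 250 bases before the start are printed 5′ to 3′ on the strand of the gene, with matches in capitals, for SDHB (chr1:17054033-17054282, minus strand), NDUFS1 (chr2:206159445-206159694, minus strand, the more upstream of its starts), COX8A (chr11:63974370-63974619, plus strand) and ATP5MC1 (chr17:48892537-48892786, plus strand).
SDHB: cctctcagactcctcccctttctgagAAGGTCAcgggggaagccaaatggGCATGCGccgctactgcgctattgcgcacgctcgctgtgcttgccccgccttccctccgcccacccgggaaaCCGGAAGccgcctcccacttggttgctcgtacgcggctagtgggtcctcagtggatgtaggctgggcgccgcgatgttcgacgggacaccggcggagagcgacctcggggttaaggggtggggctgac
NDUFS1: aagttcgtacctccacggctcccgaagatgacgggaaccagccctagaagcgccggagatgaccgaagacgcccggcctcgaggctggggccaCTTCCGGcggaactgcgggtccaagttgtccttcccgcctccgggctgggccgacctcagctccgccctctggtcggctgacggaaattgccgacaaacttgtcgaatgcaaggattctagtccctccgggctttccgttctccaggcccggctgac
COX8A: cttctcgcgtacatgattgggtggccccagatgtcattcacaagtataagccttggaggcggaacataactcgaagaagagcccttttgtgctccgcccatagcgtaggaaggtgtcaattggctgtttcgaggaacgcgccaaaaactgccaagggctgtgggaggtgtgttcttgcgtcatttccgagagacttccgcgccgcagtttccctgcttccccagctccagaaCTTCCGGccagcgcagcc
ATP5MC1: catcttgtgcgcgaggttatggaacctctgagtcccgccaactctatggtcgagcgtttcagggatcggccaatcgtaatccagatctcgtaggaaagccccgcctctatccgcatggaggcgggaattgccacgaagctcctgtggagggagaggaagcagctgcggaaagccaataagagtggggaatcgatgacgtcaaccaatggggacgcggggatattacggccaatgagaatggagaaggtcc

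The bases printed for SDHB held an ERR-alpha, an NRF1 and an ETS match, whose first bases lay 224, 200 and 128 bases before the start. NDUFS1 held an ETS match 157 bases and COX8A one 18 bases before the start, both on the opposite strand, and ATP5MC1 held no match. The full 300 bases also held a YY1 match in SDHB and an ERR-alpha match in COX8A. COX7B, ATP5PB and NDUFA9, whose results also recur below, are not printed. They held no match in the same stretch before the start, so the printed genes do not stand for the rest. Within the full 300 bases ATP5PB and NDUFA9 each held a YY1 match and COX7B held none. The less upstream start of NDUFS1 had no match in its 300 bases. Over the 300 bases, the NRF1 motif was in 14 of 69 nuclear subunit genes (20.3%), compared with 7.43% of 11381 tested genes and 4.74% of all 27305 genes with a window. The ETS motif was in 21 (30.4%), compared with 21.5% and 12.2%. The YY1 motif was in 18 (26.1%), compared with 9.15% and 7.11%. The ERR-alpha motif was in 11 (15.9%), compared with 3.66% and 4.80%. A match describes letters in these windows and is not a binding site.

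Of the 101 genes, 93 passed the filter on low counts, namely all 13 mitochondrial genes and 80 of the 88 nuclear ones. Of the 8 that did not, COX4I2, COX6A2, COX7B2 and NDUFC2-KCTD14 had 0 counts over all libraries, COX8C had 3, ATP5MF-PTCD1 had 8, and COX6B2 and ATP5MGL had 36 each. Among the isoform pairs of complex IV the reads thus lay almost entirely on COX4I1, COX6A1, COX6B1 and COX8A. COX7A1, the heart and muscle form, had 90 counts, whereas COX7A2 had 16060. NDUFA4L2, a relative of the complex IV subunit NDUFA4 that is known to be induced at low oxygen, had 532 counts, whereas NDUFA4 had 22050.

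Per kilobase of exon, all mitochondrial genes except MT-ATP8 stood above all nuclear ones in smooth controls. MT-CO1, the catalytic subunit of complex IV, had a mean level of 8660.1 CPM per kilobase, and each of the other mitochondrial genes except MT-ATP8 had at least 1157. The nuclear genes with the highest level were ATP5F1B, the catalytic beta subunit of ATP synthase, at 243, and NDUFS5, a complex I accessory subunit, at 217 CPM per kilobase. MT-ATP8, which overlaps MT-ATP6, had 73.3. Exon lengths pool all annotated transcripts, so genes with rare long transcripts are understated on this scale. NDUFA7, NDUFV2, NDUFA13 and NDUFB8 had only 96, 278, 327 and 1114 counts, and each overlaps another annotated gene on its own strand. A further limit is that 44 of the 88 nuclear genes overlap a gene on the other strand, which unstranded libraries cannot separate.

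Together the 88 nuclear genes took a smaller share of the counts in treated cells than in controls. Their share was 0.393% ± 0.011 in fractal cytokines, 0.381% ± 0.026 in smooth cytokines, 0.361% ± 0.043 in fractal THP-1, 0.376% ± 0.018 in smooth THP-1, 0.469% ± 0.00048 in fractal controls and 0.442% ± 0.0077 in smooth controls (mean and SD, n = 3 each). The highest of the 12 treated libraries was at 0.410% and the lowest control library at 0.433%, so treated and control libraries did not overlap. Without the libraries that stood apart the means were 0.366% in smooth cytokines and 0.336% in fractal THP-1 (n = 2 each). The totals include the gene FN1. With FN1 left out of them, the means of all 3 libraries were 0.445% in fractal and 0.432% in smooth cytokines. They were 0.433% in fractal and in smooth THP-1, 0.511% in fractal controls and 0.491% in smooth controls. The gap between fractal THP-1 and fractal controls was thus smaller, and single libraries are not given on this scale.

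**Figure D1:**
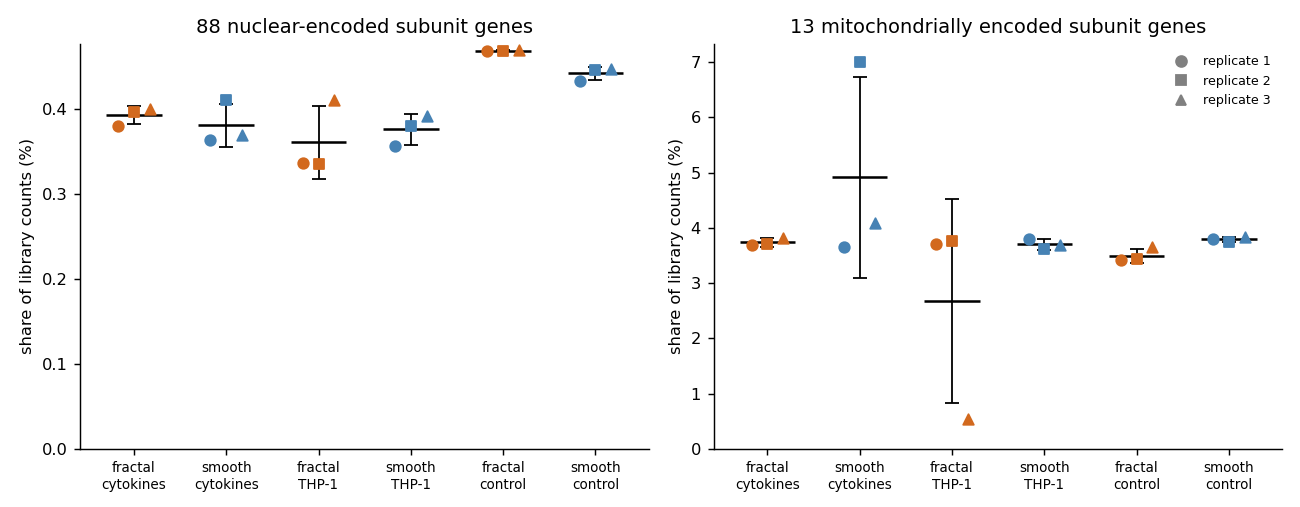
Share of library counts (%, y axis) taken by the 88 nuclear and the 13 mitochondrial subunit genes in each library, by group; symbols are replicates, and bars the mean and SD (n = 3). The nuclear share is at most 0.410% in treated libraries and at least 0.433% in controls, and the mitochondrial share is 7.01% in smooth cytokines replicate 2 and 0.536% in fractal THP-1 replicate 3.

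With THP-1 macrophages on the fractal topography, 37 of the 80 tested nuclear subunit genes fell and 2 rose (edgeR quasi-likelihood test, adjusted p under 0.05). Over all 16129 genes tested, 25.5% were lower and 25.0% higher. The median log2 fold change was -0.26 over the nuclear subunits and 0.04 over all genes. All 4 genes of complex II fell, as did 10 of 17 of complex V, 7 of 13 of complex IV, 5 of 9 of complex III, 10 of 36 of complex I, and COX7A2L. Without the libraries that stood apart, 51 of 79 fell and 0 rose, where 27.7% of all genes were lower and 25.4% higher, and 36 of the 37 were called lower again. The sum of macrophage markers was higher in these libraries, as given above, and its part in the result was not tested.

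ATP5F1B carries the catalytic sites of ATP synthase. It had 305, 298 and 310.3 CPM in fractal THP-1 libraries, against 592, 604 and 604 CPM in fractal controls (CPM here and below scaled by TMM). All 3 THP-1 libraries lay far below all 3 controls, with a log2 fold change of -0.98 ± 0.07 (edgeR adjusted p = 6.8e-12). ATP5PB, of the peripheral stalk that holds the catalytic head still, had 64.2, 60.00 and 70.97 CPM in fractal THP-1 libraries, against 115, 115 and 118 CPM in fractal controls. The groups were again apart, with a log2 fold change of -0.84 ± 0.08 (edgeR adjusted p = 2.9e-09).

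NDUFS1 carries iron-sulphur clusters in the electron input arm of complex I. It had 69.01, 81.05 and 80.4 CPM in fractal THP-1 libraries, against 124, 128 and 121 CPM in fractal controls. Every THP-1 library was below every control, with a log2 fold change of -0.70 ± 0.08 (edgeR adjusted p = 7.0e-08). COX8A had 23.1, 22.4 and 18.2 CPM in fractal THP-1 libraries, against 46.9, 49.2 and 47.97 CPM in fractal controls. The groups did not overlap, with a log2 fold change of -1.17 ± 0.11 (edgeR adjusted p = 3.8e-09). ATP5F1A, the alpha subunit of the ATP synthase head, had 261, 270.0 and 336 CPM in fractal THP-1 libraries, against 458, 430.3 and 434 CPM in fractal controls. Replicate 3 was the highest THP-1 library but still below the controls, with a log2 fold change of -0.61 ± 0.08 (edgeR adjusted p = 7.0e-07).

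Complex II oxidises succinate and so is also an enzyme of the tricarboxylic acid cycle. SDHB had 27.1, 29.9 and 48.04 CPM in fractal THP-1 libraries, against 51.9, 50.2 and 58.4 CPM in fractal controls, with a log2 fold change of -0.62 ± 0.14 (edgeR adjusted p = 5.8e-04). SDHA, its flavoprotein, had 79.9, 69.8 and 137 CPM in fractal THP-1 libraries, against 127, 120.3 and 127 CPM in fractal controls. The SDHA groups overlapped through fractal THP-1 replicate 3, and the log2 fold change was -0.39 ± 0.15 with all libraries and -0.74 ± 0.07 without the libraries that stood apart. SDHC and SDHD, the membrane anchors, had log2 fold changes of -0.26 ± 0.08 and -0.55 ± 0.14 with all libraries. In fractal THP-1 replicate 3, SDHD had 17.03 CPM, 0.540 times the mean of the other libraries of its group, so its value leans on that library.

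The genes that rose were NDUFB1 and NDUFA11, accessory subunits of complex I, with log2 fold changes of 0.81 ± 0.26 and 0.60 ± 0.21. NDUFB1 had 12.97, 15.6 and 26.5 CPM in fractal THP-1 libraries, against 10.2, 10.6 and 10.2 CPM in fractal controls, with replicate 3 highest. Both calls were lost without the libraries that stood apart (edgeR adjusted p = 0.052 and 0.055). COX4I1, a structural subunit of complex IV, had 143, 129 and 222 CPM in fractal THP-1 libraries, against 158, 163 and 159.7 CPM in fractal controls. Its log2 fold change was 0.03 ± 0.14 with all libraries and -0.24 ± 0.07 (edgeR adjusted p = 0.0023) without those libraries, so its direction rests on fractal THP-1 replicate 3. NDUFA4L2 was also among the genes lower, at 0.528, 0.296 and 0 CPM in fractal THP-1 libraries, against 1.89, 1.41 and 1.34 CPM in fractal controls, with few counts.

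With THP-1 macrophages on the smooth topography, 28 of the 80 nuclear subunit genes fell and 2 rose, where 17.7% of all genes tested were lower and 17.3% higher. The median log2 fold change was -0.24 over the nuclear subunits and 0.02 over all genes. By complex, 9 of 36 fell in complex I, 1 of 4 in complex II, 4 of 9 in complex III, 5 of 13 in complex IV and 8 of 17 in complex V, besides COX7A2L. Without the libraries that stood apart 3 of 4 fell in complex II and 10 of 12 in complex IV. In that run 41 of 79 fell in all and 3 rose, where 22.9% of all genes were lower and 21.7% higher, and all 28 were called lower again. The macrophage marker sum was highest in the smooth THP-1 libraries, and its part in the result was not tested.

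ATP5F1B had 360.1, 353 and 366 CPM in smooth THP-1 libraries, against 562, 558 and 576 CPM in smooth controls, with a log2 fold change of -0.65 ± 0.07 (edgeR adjusted p = 2.4e-08). ATP5PB had 65.8, 69.1 and 70.9 CPM in smooth THP-1 libraries, against 107, 109 and 113 CPM in smooth controls, with a log2 fold change of -0.68 ± 0.08 (edgeR adjusted p = 2.1e-07). Neither gene overlapped between the groups. COX7A2L had 51.3, 47.3 and 44.1 CPM in smooth THP-1 libraries, against 68.4, 74.7 and 77.4 CPM in smooth controls, also apart, with a log2 fold change of -0.63 ± 0.09 (edgeR adjusted p = 9.6e-06). NDUFS1 and COX7B, a small subunit of complex IV, followed by adjusted p, at log2 fold changes of -0.48 ± 0.08 and -0.73 ± 0.12. The genes that rose were NDUFA11, at 0.64 ± 0.21, and NDUFS8, an iron-sulphur core subunit of complex I, at 0.26 ± 0.10. On both topographies together, 20 genes were called lower with THP-1, 54.1% of those on the fractal and 71.4% of those on the smooth topography. The same overlap was not counted over all genes, so it is not read as particular to the subunits.

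**Figure D2:**
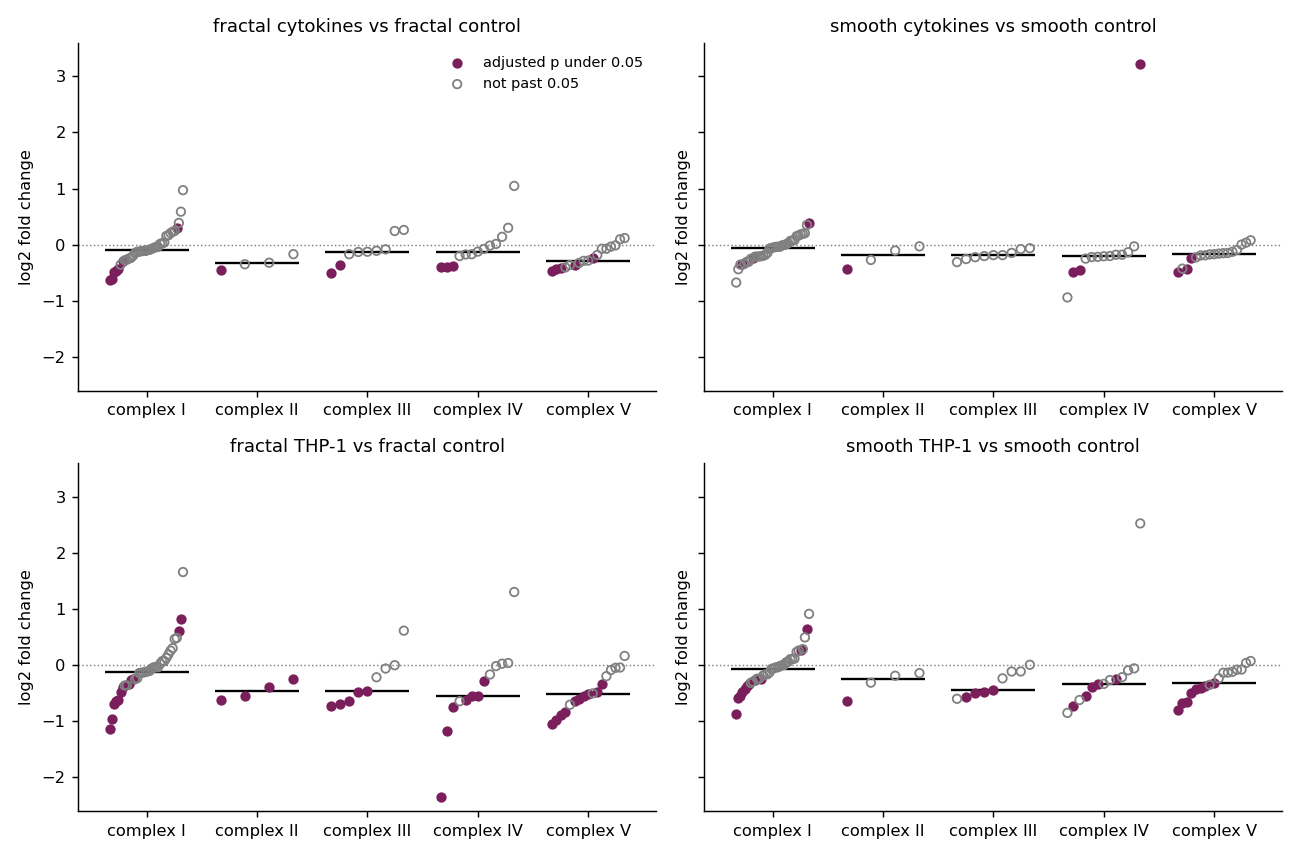
log2 fold change (y axis) of each tested nuclear subunit gene by complex (x axis) in the 4 comparisons of a treatment with control; filled points passed an adjusted p of 0.05, lines are medians, and COX7A2L is not drawn. Most points lie below 0, and the point near 3.21 with cytokines on the smooth topography is COX7A1, with 90 counts over all libraries.

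Within ATP synthase, genes from each part of the enzyme fell with THP-1 on the fractal topography. Of 5 genes of the catalytic head and central stalk, 3 fell with THP-1 on the fractal and 4 on the smooth topography. Of 4 genes of the peripheral stalk 2 fell on the fractal and 2 on the smooth, of 5 genes for small membrane subunits 3 and 2, and of 3 c-ring genes 2 and 0. Over all genes tested, 25.5% were lower on the fractal and 17.7% on the smooth topography, and each part holds few genes. With the libraries that stood apart left out, all 5 genes for small membrane subunits fell on the fractal topography. So did 4 genes of the head and central stalk and 3 of the peripheral stalk. On the smooth, 3 genes for small membrane subunits and 1 c-ring gene fell, and the other counts were unchanged. In that run 27.7% and 22.9% of all genes were lower. The c-ring is built from ATP5MC1, ATP5MC2 and ATP5MC3, which encode the same mature protein, and ATP5MC2 and ATP5MC3 were singled out after their values were seen. ATP5MC1 had 24.9, 25.9 and 21.5 CPM in fractal THP-1 libraries, against 44.98, 40.1 and 49.5 CPM in fractal controls, without overlap, and ATP5MC2 had 93.2, 94.00 and 86.6 CPM in fractal THP-1 libraries, against 89.9, 94.2 and 98.6 CPM in fractal controls. The log2 fold changes were -0.89 ± 0.12 for ATP5MC1, -0.05 ± 0.08 for ATP5MC2 and -0.34 ± 0.13 for ATP5MC3 (edgeR adjusted p = 9.5e-07, 0.656 and 0.039).

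In complex I, 2 of its 7 nuclear core subunits, which carry the flavin and the iron-sulphur clusters, fell with THP-1 on the fractal topography, and 3 fell and 1 rose on the smooth. Of its 29 tested accessory subunits, 8 fell and 2 rose on the fractal, and 6 fell and 1 rose on the smooth. Among all genes tested, 25.5% were lower and 25.0% higher on the fractal, and 17.7% lower and 17.3% higher on the smooth. With all libraries, the share of accessory subunits that fell was thus near that of all genes on both topographies. So was that of core subunits on the fractal. Without the libraries that stood apart, 12 accessory subunits fell and 0 rose on the fractal, and 9 fell and 2 rose on the smooth. In that run 3 core subunits fell on the fractal. Among all genes, 27.7% were then lower and 25.4% higher on the fractal, and 22.9% lower and 21.7% higher on the smooth. In complex III, UQCRFS1, the Rieske iron-sulphur protein, had log2 fold changes of -0.69 ± 0.13 on the fractal and -0.57 ± 0.13 on the smooth topography, and was chosen after its values were seen.

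With cytokines on the fractal topography, 17 of the 80 nuclear subunit genes fell and 1 rose, where 12.9% of all genes tested were lower and 25.8% changed in either direction. The median log2 fold change was -0.12 over the nuclear subunits and 0.03 over all genes. ATP5F1B had 458, 415 and 423 CPM in fractal cytokine libraries, against 592, 604 and 604 CPM in fractal controls, with a log2 fold change of -0.47 ± 0.07 (edgeR adjusted p = 4.9e-06). NDUFS1 had 81.5, 89.2 and 94.3 CPM in fractal cytokine libraries, against 124, 128 and 121 CPM in fractal controls, with a log2 fold change of -0.49 ± 0.08 (edgeR adjusted p = 3.5e-05). The groups did not overlap in either gene. ATP5F1A, UQCRFS1 and COX8A followed, at log2 fold changes of -0.35 ± 0.08, -0.51 ± 0.13 and -0.40 ± 0.11. NDUFA5, an accessory subunit of complex I, rose, at 0.30 ± 0.10. Without fractal control replicate 3, 10 genes were called in place of 18.

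With cytokines on the smooth topography, 8 of the 80 nuclear subunit genes fell and 2 rose, where 12.4% of all genes tested were lower and 13.2% higher, so the share lower was near that of all genes. The median log2 fold change was -0.18 over the nuclear subunits and 0.01 over all genes. ATP5F1B had 405, 433 and 426 CPM in smooth cytokine libraries, against 562, 558 and 576 CPM in smooth controls, without overlap, with a log2 fold change of -0.42 ± 0.07 (edgeR adjusted p = 2.1e-05). NDUFS1, COX7A2, COX7B and ATP5MG, a small membrane subunit of ATP synthase, followed, at log2 fold changes of -0.35 ± 0.08, -0.45 ± 0.11, -0.49 ± 0.12 and -0.49 ± 0.14. NDUFB10, an accessory subunit of complex I, rose, at 0.38 ± 0.11. COX7A1 was also called higher, at 1.10, 0.656 and 0.164 CPM in smooth cytokine libraries, against 0.118, 0.0576 and 0 CPM in smooth controls, levels that rest on few counts. Without smooth control replicate 2 or 3, 5 genes were called in place of 10.

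Both cytokine counts also depended on the libraries that stood apart. Without them, 28 of 79 nuclear genes fell and 2 rose on the fractal topography, where 18.1% of all genes were lower and 17.6% higher. On the smooth topography 31 fell and 1 rose, where 16.9% of all genes were lower and 17.3% higher. All 17 and all 8 genes were called lower again. With all libraries, 6 genes were lower with cytokines on both topographies, 35.3% of those on the fractal and 75.00% of those on the smooth. ATP5F1B, ATP5PB, COX7B, NDUFS1 and SDHB were lower in all 4 comparisons with control, in which the treatments of a topography share their control libraries. Neither overlap was counted over all genes, so neither is read as particular to the subunits.

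Between fractal and smooth controls, 0 of 80 nuclear subunit genes passed the threshold in edgeR, 3 had an unadjusted p under 0.05 and DESeq2 called 1, ATP5F1A, where 1.77% of all genes were called. The median log2 fold change was 0.05. Between fractal and smooth cells with cytokines, 0 of 80 passed in edgeR, 2 had an unadjusted p under 0.05 and DESeq2 called 0, where 4.46% of all genes were called. Without the libraries that stood apart 3 genes were higher in fractal controls, where 3.48% of all genes were higher. They were SDHA at a log2 fold change of 0.23 ± 0.06, UQCRC1, a core protein of complex III, at 0.28 ± 0.06, and ATP5F1A at 0.24 ± 0.05. In that run NDUFA4L2, at 1.52 ± 0.39, and COX7A2L, at 0.28 ± 0.08, were higher and none lower on the fractal topography with cytokines, where 4.24% of all genes were higher and 5.18% lower. UQCRC1, ATP5F1A and COX7A2L were named here after their values were seen.

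With THP-1 macrophages, 5 of 80 nuclear subunit genes were lower and 2 higher on the fractal than on the smooth topography, where 11.7% of all genes were lower and 8.25% higher. COX8A had 23.1, 22.4 and 18.2 CPM in fractal THP-1 libraries, against 35.3, 44.3 and 39.4 CPM in smooth THP-1 libraries, with a log2 fold change of -0.90 ± 0.11 (edgeR adjusted p = 2.0e-06). ATP5MC1 had 24.9, 25.9 and 21.5 CPM in fractal THP-1 libraries, against 41.4, 39.4 and 42.9 CPM in smooth THP-1 libraries, with a log2 fold change of -0.77 ± 0.12 (edgeR adjusted p = 3.8e-05). Neither gene overlapped between the topographies. NDUFA4L2 had 0.528, 0.296 and 0 CPM in fractal THP-1 libraries, against 1.22, 1.54 and 1.75 CPM in smooth THP-1 libraries. Its fitted log2 fold change of -2.31 ± 0.53 rests on few counts, and the gene overlaps SHMT2 on the other strand.

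ATP5F1B and NDUFA9, an accessory subunit of complex I, were also lower on the fractal topography with THP-1, at log2 fold changes of -0.24 ± 0.07 and -0.63 ± 0.18. COX7A2L was higher, at 55.5, 56.2 and 63.8 CPM in fractal THP-1 libraries, against 51.3, 47.3 and 44.1 CPM in smooth THP-1 libraries, without overlap, with a log2 fold change of 0.30 ± 0.09 (edgeR adjusted p = 0.028). NDUFB5, an accessory subunit of complex I, was higher at 0.29 ± 0.10, a call lost without the libraries that stood apart (0.19, edgeR adjusted p = 0.155). In that run 16 of 79 were lower and 1 higher, where 15.3% of all genes were lower and 10.2% higher. Leaving out fractal THP-1 replicate 1, 2 or 3 alone gave 12, 14 and 15 calls in place of 7, leaving out smooth THP-1 replicate 2 gave 4, and fitting only these groups gave 2. SDHA had a log2 fold change of 0.15 ± 0.15 with all libraries and -0.20 ± 0.07 (edgeR adjusted p = 0.033) without those that stood apart. The macrophage marker sum was lower in the fractal than in the smooth THP-1 libraries, and its part in these differences was not tested.

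The effect of THP-1 differed between topographies in 4 of 80 nuclear subunit genes, each with a more negative effect on the fractal topography, where 7.88% of all genes were more negative and 5.35% more positive. The difference of the log2 effects, fractal minus smooth, was -1.11 ± 0.16 for COX8A (edgeR adjusted p = 1.7e-05) and -0.96 ± 0.17 for ATP5MC1 (edgeR adjusted p = 2.5e-04). It was -0.33 ± 0.09 for ATP5F1B (edgeR adjusted p = 0.019) and -0.83 ± 0.25 for NDUFA9 (edgeR adjusted p = 0.028). On the smooth topography the THP-1 effect itself was -0.06 ± 0.11 for COX8A and 0.07 ± 0.12 for ATP5MC1. NDUFA9 had 6.87, 4.20 and 5.23 CPM in fractal THP-1 libraries and 8.50, 8.95 and 7.82 CPM in smooth THP-1 libraries, against 10.9, 13.01 and 12.2 CPM in fractal controls and 11.7, 9.62 and 10.2 CPM in smooth controls.

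Without the libraries that stood apart, 17 of 79 genes were more negative and 1 more positive on the fractal topography. There 13.2% of all genes were more negative and 8.81% more positive. COX8A, ATP5MC1, ATP5F1B and NDUFA9 were among the 17. Leaving out fractal THP-1 replicate 3 alone gave 17 calls, and leaving out smooth control replicate 2 gave 2. For the cytokines, 0 of 80 genes passed this test in edgeR, 2 had an unadjusted p under 0.05 and DESeq2 called 1, NDUFA4L2, where 2.7% of all genes were called. Without the libraries that stood apart 3 passed, where 8.82% of all genes were called. They were NDUFA4L2 at 2.33 ± 0.52 and NDUFA3, an accessory subunit of complex I, at 0.64 ± 0.19, with a more positive cytokine effect on the fractal topography, and ATP5F1A at -0.26 ± 0.08, with a more negative one, all named after their values were seen.

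**Figure D3:**
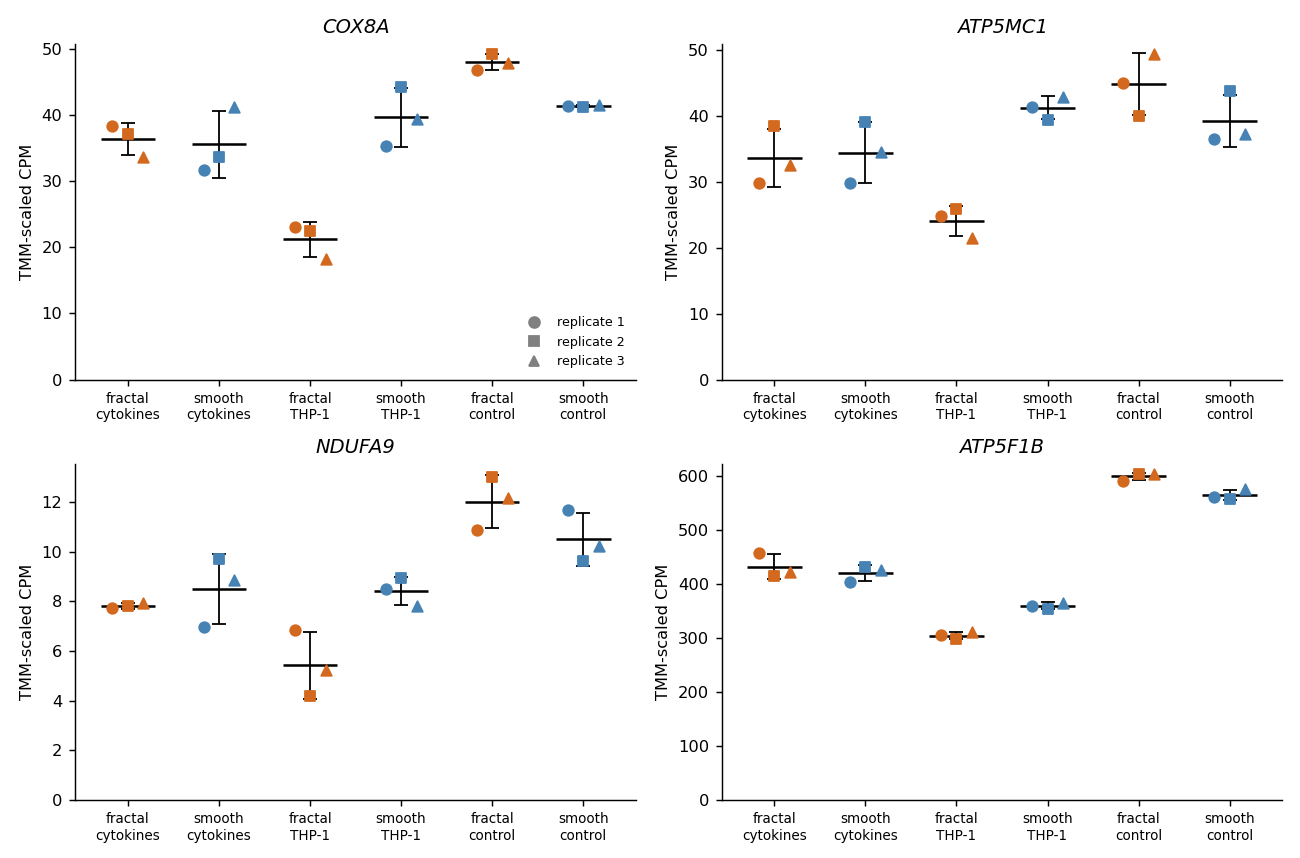
TMM-scaled CPM (y axes) of the 4 nuclear subunit genes whose THP-1 effect differed between topographies, in each library by group; symbols are replicates, and bars the mean and SD (n = 3). COX8A is at 23.1, 22.4 and 18.2 CPM in fractal THP-1 libraries and 35.3, 44.3 and 39.4 CPM in smooth THP-1 libraries.

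With all 18 libraries, 0 of the 13 mitochondrial genes were called in each of the 9 comparisons in edgeR, 0 had an unadjusted p under 0.05, and DESeq2 called 0. Each gene had 1 spread shared by all groups, so the libraries that stood apart also entered comparisons that hold neither of them. Fits of only the groups compared, given in the last section, called mitochondrial genes in some of those. Their summed share was 3.74% ± 0.07 in fractal cytokines, 4.92% ± 1.82 in smooth cytokines, 2.67% ± 1.85 in fractal THP-1, 3.70% ± 0.10 in smooth THP-1, 3.50% ± 0.13 in fractal controls and 3.79% ± 0.05 in smooth controls (mean and SD, n = 3 each). The wide spreads came from 1 library each. Smooth cytokines replicate 2 was at 7.01% (Wilson 95% interval 6.996 to 7.02%, counting error only) and fractal THP-1 replicate 3 at 0.536% (0.532 to 0.540%). Without them the means were 3.87% in smooth cytokines and 3.74% in fractal THP-1 (n = 2 each).

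These libraries departed from their groups in different ways. In smooth cytokines replicate 2 the 13 genes were 1.59 to 1.89 times the mean of the other 2 libraries, a nearly even shift. In fractal THP-1 replicate 3 the ratio ran from 0.0693 for MT-ATP6, the proton channel subunit of ATP synthase, through 0.174 for MT-CO1 to 0.327 for MT-ATP8. MT-ND6, which alone of the 13 lies on the minus strand, was at 0.226. Of 73 nuclear subunit genes with a mean above 5 CPM, 19 were more than 1.5 times the mean of the other 2 libraries in fractal THP-1 replicate 3 and 8 were lower than it by more than 1.5 times. They ran from 0.126 for ATP5PF, a peripheral stalk subunit, to 2.95 for COX6C, a small subunit of complex IV. In smooth cytokines replicate 2 these counts were 1 and 0.

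**Figure D4:**
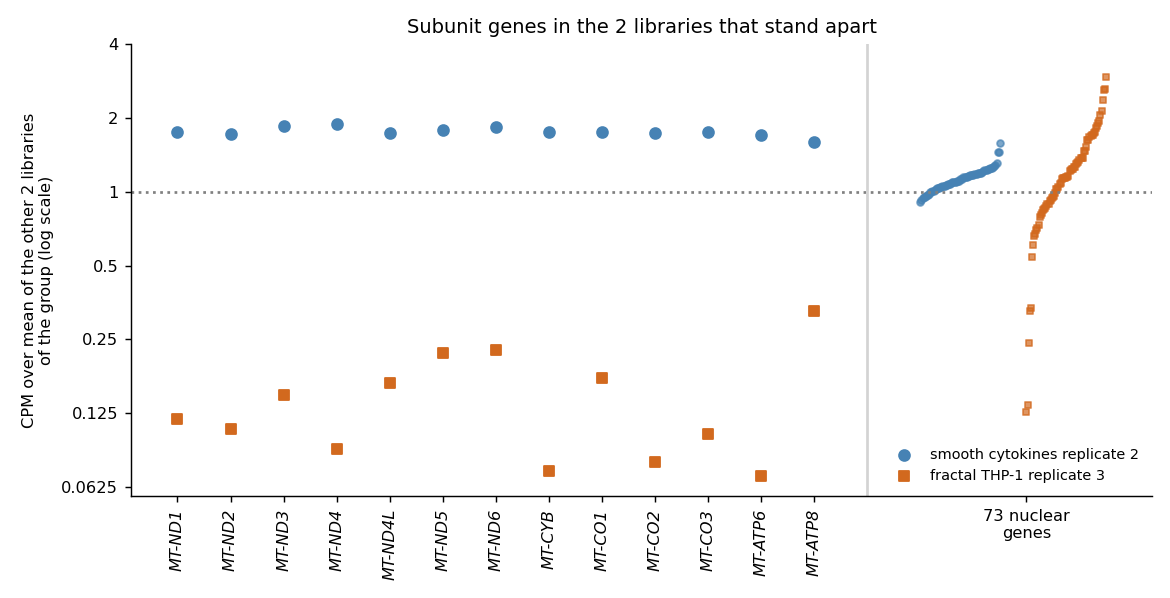
CPM in smooth cytokines replicate 2 and in fractal THP-1 replicate 3 over the mean of the other 2 libraries of the group (y axis, log scale), for the 13 mitochondrial genes and for 73 nuclear subunit genes with a mean above 5 CPM. For the mitochondrial genes the ratio is 1.59 to 1.89 in smooth cytokines replicate 2 and 0.0693 to 0.327 in fractal THP-1 replicate 3.

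Without those libraries, the mitochondrial genes did not move together. With THP-1 on the smooth topography 7 of 13 fell, where 22.9% of all genes were lower and 21.7% higher. They were MT-ND1, MT-ND2, MT-ND3, MT-ND4L, MT-CO2, MT-CO3 and MT-ATP8, with log2 fold changes from -0.44 for MT-ND2 to -0.28 for MT-ND1. With THP-1 on the fractal topography MT-ND2, MT-CO2 and MT-CO3 fell, at -0.29 ± 0.09, -0.26 ± 0.06 and -0.14 ± 0.06, and MT-CO1 rose, at 0.30 ± 0.05. There 27.7% of all genes were lower and 25.4% higher, so neither share among the mitochondrial genes was above that of all genes. MT-CO1 had 15804, 14920.4 and 2680.0 CPM in fractal THP-1 libraries, against 12091, 12055 and 13009 CPM in fractal controls, so replicates 1 and 2 were above and replicate 3 below all controls. Its log2 fold change with all libraries was -0.15 ± 0.45.

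MT-CO1 also changed direction between the topographies with THP-1, at -0.29 ± 0.45 with all libraries and 0.17 ± 0.05 without those that stood apart, and in the difference of THP-1 effects, at -0.19 ± 0.64 and 0.28 ± 0.07. MT-ATP8 was higher on the fractal than on the smooth topography with THP-1 in that run, at 0.62 ± 0.15, and MT-ND3 had a more positive THP-1 effect on the fractal topography, at 0.50 ± 0.13. Of all genes, 10.2% were higher on the fractal topography with THP-1, and 8.81% had a more positive THP-1 effect there. With cytokines MT-CO1 and MT-CYB, the cytochrome b of complex III, rose on both topographies, at 0.25 ± 0.05 and 0.15 ± 0.05 on the fractal and 0.20 ± 0.05 and 0.16 ± 0.06 on the smooth. MT-ATP8 fell with cytokines on the fractal topography, at -0.46 ± 0.13. With cytokines 17.6% of all genes were higher and 18.1% lower on the fractal topography, and 17.3% were higher on the smooth. The mitochondrial genes were thus called no more often than all genes with cytokines. In fractal controls MT-ND3, MT-CO2 and MT-CO3 were lower than in smooth controls, at -0.34 ± 0.08, -0.17 ± 0.05 and -0.26 ± 0.05, where 3.69% of all genes were lower.

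Other mitochondrial genes were counted from lists. With THP-1 on the fractal topography, 14 of 18 genes of the tricarboxylic acid cycle and of the dehydrogenase complexes that serve it were lower and 0 higher, where 25.5% of all genes tested were lower and 25.0% higher. The median log2 fold change was -0.61 over these genes and 0.04 over all genes. CS, citrate synthase, was at -1.08 ± 0.09 and DLST, part of the 2-oxoglutarate dehydrogenase, at -0.83 ± 0.07. Of the mitochondrial ribosomal proteins, which serve to translate the 13 mitochondrial messages, 52 of 78 were lower and 1 higher, with MRPL37 at -1.08 ± 0.08 and MRPL3 at -1.06 ± 0.10. Of the genes that maintain and transcribe mitochondrial DNA or process its RNA, 13 of 24 were lower and 0 higher. PNPT1, a mitochondrial RNA nuclease, was at -1.50 ± 0.11 and SSBP1, which binds single-stranded mitochondrial DNA, at -0.64 ± 0.09. In these 3 lists, 16, 59 and 17 genes were lower without the libraries that stood apart, where 27.7% of all genes were lower.

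Among mobile carriers and membrane transporters, 10 of 20 were lower and 2 higher in that comparison. CYCS, the cytochrome c that carries electrons between complexes III and IV, was at -1.18 ± 0.10 and VDAC1, an outer membrane channel, at -1.10 ± 0.08. Of assembly factors, 6 of 16 for complex I, 0 of 4 for complex II, 3 of 9 for complex III, 10 of 24 for complex IV and 1 of 5 for ATP synthase, its inhibitor included, were lower, so the shares for complex III and ATP synthase were near the 25.5% of all genes. Higher were 1 factor for complex I, 1 for complex II and 3 for complex IV, where 25.0% of all genes were higher. With those libraries left out, 11 factors for complex I and 3 for ATP synthase were lower, and 0 for complex II were higher. NDUFAF2 and NUBPL, factors for complex I, were at -1.32 ± 0.19 and -1.22 ± 0.17, and HIGD1A, a factor for complex IV, at -0.84 ± 0.09. Of the regulators of mitochondrial biogenesis 5 of 13 were lower and 3 higher, with MYC, a transcription factor of cell growth, at -2.27 ± 0.14, PPRC1, a coactivator, at -0.54 ± 0.08 and SIRT3, a mitochondrial deacetylase, at 0.78 ± 0.19. SIRT3 was less high without the libraries that stood apart, at 0.48.

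With THP-1 on the smooth topography 11 of 18 cycle genes, 28 of 78 mitochondrial ribosomal proteins and 10 of 20 carriers and transporters fell, where 17.7% of all genes were lower. Of the ribosomal proteins 42 fell without the libraries that stood apart, where 22.9% of all genes were lower. Of the cycle genes, FH, fumarase, was at -0.77 ± 0.10, and OGDH, the first enzyme of the 2-oxoglutarate dehydrogenase, rose, at 0.47 ± 0.09. The THP-1 effect was more negative on the fractal topography in 7 of 18 cycle genes, among them CS, at a difference of -0.65 ± 0.12, where 7.88% of all genes were more negative. In the ribosomal proteins it was more negative in 6 of 78, a share near that of all genes, with MRPL37 at -0.61 ± 0.12. These counts were 11 and 20 without the libraries that stood apart, where 13.2% of all genes were more negative. With cytokines 12 of 18 cycle genes were lower on the fractal and 8 of 18 on the smooth topography, where 12.9% and 12.4% of all genes were lower. SUCLG2, a subunit of succinate-CoA ligase, was at -0.84 ± 0.09 on the fractal and -0.70 ± 0.09 on the smooth, and IDH2, the mitochondrial NADP-dependent isocitrate dehydrogenase, at -0.72 ± 0.08 and -0.62 ± 0.08.

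**Figure D5:**
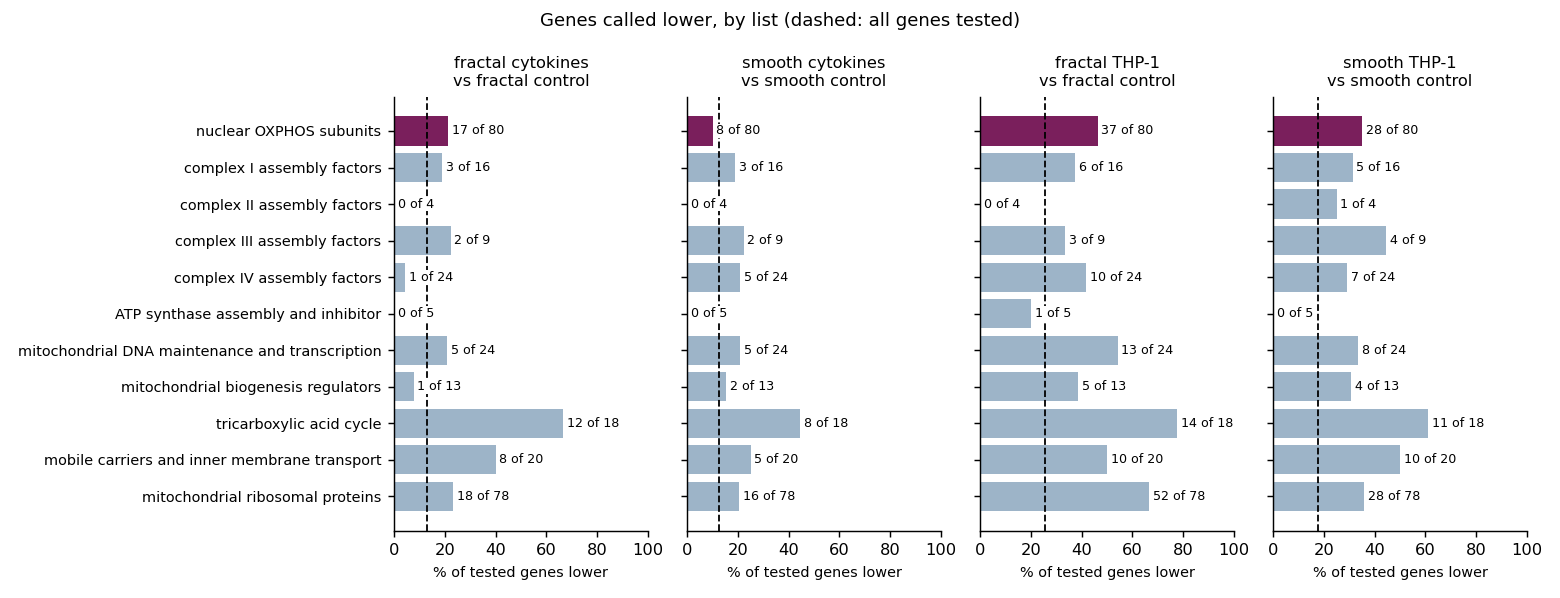
Percent of tested genes called lower (x axis) in the 4 comparisons of a treatment with control, for the nuclear subunits and 10 lists of other mitochondrial genes; dashed lines mark the percent lower among all genes tested. With THP-1 on the fractal topography 14 of 18 cycle genes and 37 of 80 nuclear subunits were lower, where the dashed line is at 25.5%.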

How the data were processed

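RNA-seq libraries were made from poly-A RNA without strand information and sequenced as paired ends, per the labels' protocols. Per the submitters' processing notes the tools included HISAT2 2.0.5 as well as featureCounts (1.5.0-p3), with the GRCh38 build. The authors deposited whole-number read counts per gene, taken here as not normalized because the library totals differ. Columns were matched to samples by name, and 0 value columns were left unmapped. From these counts edgeR 4.0.16 (R 4.3.3) computed TMM factors and quasi-likelihood tests over all 18 libraries with 1 mean per group, after filterByExpr (minimum count 10, minimum total 15), with Benjamini-Hochberg adjustment over all 16129 genes tested within a comparison and a threshold of 0.05. There were 12 residual degrees of freedom and a common biological variation of 12.2%. The script was tested on simulated data. Alternatives were DESeq2 1.42.0, another scaling, no filter, a replicate block, mitochondrial genes left out, only the groups compared, each replicate left out, and leaving out together replicate 2 of smooth cytokines and replicate 3 of fractal THP-1. Exon lengths and overlaps came from GENCODE 29 and promoters from RefSeq.

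The genes, lists and tests were chosen with earlier results of these data known. Named were all mitochondrial genes, up to 5 nuclear genes per direction and comparison by adjusted p, isoform pairs and the 4 SDH genes, and up to 2 genes per list and direction; others are named as the extreme of a range or marked as chosen after their values were seen. Wilson intervals cover counting error only.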

Additional observations from a re-analysis of the deposited data

Results flagged for a closer look

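The effect of THP-1 macrophages differed between the fractal and the smooth topography in 4 of 80 nuclear subunit genes, by a test of the difference itself (edgeR quasi-likelihood test). Each effect was more negative on the fractal topography, where 7.88% of all genes were more negative and 5.35% more positive. With all libraries the share among the subunits was thus no higher than among all genes. The difference of log2 effects, fractal minus smooth, was -1.11 for COX8A, -0.96 for ATP5MC1, -0.83 for NDUFA9 and -0.33 for ATP5F1B. Without replicate 2 of smooth cytokines and replicate 3 of fractal THP-1 the same differences were -1.02, -0.89, -0.80 and -0.34. In that run 17 of 79 nuclear subunit genes were more negative and 1 more positive. Of all genes, 13.2% were then more negative and 8.81% more positive.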

How the results depend on the processing

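Without replicate 2 of smooth cytokines and replicate 3 of fractal THP-1, the number of nuclear subunit genes called was 3 between fractal and smooth controls, 2 between topographies with cytokines, 17 with THP-1, 32 for cytokines on the smooth and 30 on the fractal topography, and 3 and 18 for the difference of the cytokine and of the THP-1 effects. In the same order the mitochondrial genes called were 3, 0, 2, 2, 3, 0 and 2, and 7 for THP-1 on the smooth and 4 on the fractal topography. These libraries turned the log2 fold change of SDHA (to -0.20 without them; -0.20 to 0.33 with a replicate left out) and MT-CO1 (to 0.17) between topographies with THP-1, of COX4I1 (to -0.24) and MT-CO1 (to 0.30) for THP-1 on the fractal topography, and of MT-CO1 in the difference of THP-1 effects (to 0.28). Fitting only the groups compared called 10 nuclear and 5 mitochondrial genes between controls, 2 nuclear genes between topographies with THP-1, 18 for cytokines on the smooth topography, 33 nuclear and 4 mitochondrial for cytokines on the fractal, 9 mitochondrial for THP-1 on the smooth, and 1 nuclear and 1 mitochondrial for the difference of cytokine effects. In the same order that setting called 2755 of all 14187 genes, 1412 of 14983, 4791 of 14434, 5865 of 14294, 7654 of 14726 and 983 of 15203. The cause was not tested. DESeq2 called 1 nuclear gene between controls and 1 for the difference of cytokine effects, where it called 495 of all 14116 genes and 670 of 14770. With no filter the nuclear calls were 1 between topographies with cytokines, 12 with THP-1 and 1 for the difference of cytokine effects. Of all 33741 genes tested, 851, 3167 and 606 were called there. With each replicate left out in turn, nuclear calls ranged over 4 to 15 between topographies with THP-1, 5 to 13 and 10 to 18 for cytokines on the smooth and fractal topographies, 21 to 26 and 33 to 50 for THP-1 on them, and 0 to 1 and 2 to 17 for the differences of cytokine and THP-1 effects. Of all 16661 to 16818 genes tested, calls ranged in the same order over 2341 to 3847, 3237 to 4013, 3176 to 3718, 4602 to 4901, 7223 to 8592, 271 to 532 and 1632 to 3266. Mitochondrial calls between topographies with THP-1 ranged over 0 to 1, with the call made without fractal THP-1 replicate 3. The mitochondrial share ranged over 2.12 to 3.74% in fractal THP-1 and 3.87 to 5.55% in smooth cytokines. As a share of nuclear counts only, the nuclear genes were at 0.410% in fractal cytokines, 0.488% in fractal controls and 0.463% in smooth controls. With FN1 left out of the total, the mitochondrial share was 4.24% in fractal cytokines, 4.27% in smooth THP-1, 3.82% in fractal controls and 4.21% in smooth controls. The labels give replicates a shared number and no shared source, and deviations from group means correlated between same-numbered libraries at -0.067 to 0.064. Of the libraries, 9 of 18 were closest to a library of the same number, and with a replicate block the nuclear calls were 6 between topographies with THP-1, 10 and 18 for cytokines on the smooth and fractal topographies, 31 and 38 for THP-1 on them, 4 for the difference of THP-1 effects and 0 in the others. Of all 16129 genes tested, the block gave 3114, 4063, 4075, 5565, 8059 and 2086 calls in the same order. For single genes, 3332 values kept direction and side of the threshold, 89 passed it newly, 78 lost it and 7 changed sign. Between topographies with THP-1 the standard error of MT-CO1 was 0.45 with all libraries and 0.05 without the 2 libraries left out together.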
